A study of Mus musculus with 4 samples.

Results

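The cells described here are peritoneal cells with many transcripts of Ccr2, the receptor for the monocyte-attracting chemokine Ccl2, together with many transcripts of Cd74, the invariant chain that escorts MHC class II molecules. A cell barcode was taken if it had at least 500 detected genes, at most 10% of its UMIs (unique molecular identifiers, each standing for 1 captured transcript) from mitochondrial genes, at least 3 Ccr2 UMIs, at least 20 Cd74 UMIs and at most 1 Cd209a UMI. It also had to lack any UMI of Timd4, Cd79a, Cd3d, Cd3e and Cd3g and to hold under 5 UMIs of the cell-cycle genes Mki67, Top2a, Birc5 and Ube2c together. This selected 1379 of the 20864 cells that passed the gene and mitochondrial limits, and of the 26811 barcodes in all. They are called Ccr2-high cells below.

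The peritoneal cavity holds large resident macrophages, which depend on the transcription factor Gata6 and carry little MHC class II, and small macrophages, which carry more class II, less F4/80 (the protein of Adgre1) and need Irf4. Small peritoneal macrophages are known to be refilled from Ccr2-bearing blood monocytes, and the cavity also holds conventional dendritic cells that share class II, Irf4 and Ccr2 with them and are told apart by genes such as Cd209a, Flt3 and Zbtb46. Class II genes are switched on by Ciita, a coactivator that assembles on a short promoter module of S, X and Y boxes; the Y box is read by the factor NF-Y as CCAAT, and the X2 box resembles a cyclic AMP response element.

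The promoters of H2-Aa and H2-Eb1, class II chain genes that were both higher than in the comparison cells of every library, are shown because class II genes share such a module; only CCAAT and TGACGTCA were searched, and neither is the whole module. They come from RefSeq on build GRCm38.p6, from 250 bases before to 50 bases after the start, at chr17:34287774-34288073 on the minus strand for H2-Aa and chr17:34305617-34305916 on the plus strand for H2-Eb1. Capitals mark CCAAT, searched on both strands and so also seen as ATTGG, and the palindrome TGACGTCA; these motifs do not overlap here.
H2-Aa: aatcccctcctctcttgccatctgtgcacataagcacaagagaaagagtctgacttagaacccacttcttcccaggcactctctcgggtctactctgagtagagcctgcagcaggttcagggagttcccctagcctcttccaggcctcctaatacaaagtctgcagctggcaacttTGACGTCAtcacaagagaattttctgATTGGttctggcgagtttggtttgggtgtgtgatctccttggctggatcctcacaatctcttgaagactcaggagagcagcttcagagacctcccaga
H2-Eb1: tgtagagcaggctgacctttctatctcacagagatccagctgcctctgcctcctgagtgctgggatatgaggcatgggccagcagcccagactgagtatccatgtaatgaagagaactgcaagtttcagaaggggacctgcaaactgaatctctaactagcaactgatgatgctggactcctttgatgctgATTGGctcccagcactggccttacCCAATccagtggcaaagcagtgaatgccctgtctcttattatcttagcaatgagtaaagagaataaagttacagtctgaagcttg
H2-Aa held CCAAT with its first base at position -48 and TGACGTCA at -74 from the start, and H2-Eb1 held CCAAT at -59 and -35 and no TGACGTCA in this window. Among all 32851 RefSeq promoter windows of the same length, 37.4% held CCAAT, 1.79% held TGACGTCA and 0.642% held both. A match is a description of the letters and was not tested as a binding site.

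The study set Apoe-/- mice given a high-fat diet and an antibody to collagen VI (anti-CVI-mAb) beside Apoe-/- mice given the diet and buffer, Apoe-/- mice on normal diet, and C57BL/6 wild-type mice on normal diet, with 1 sample each. Apoe-/- mice lack apolipoprotein E in every cell and are used as a model of atherosclerosis; they were of C57BL/6 background, and all mice were 24 weeks old. The diet, of 21% fat and 0.15% cholesterol, was started at 4 weeks of age, lasted 20 weeks, and gave way to normal food 1 week ahead of the first immunization; in week 21 an intraperitoneal injection of 3 mg of antibody in 200 µL, or of 200 µL of buffer, was given, and both normal-diet controls received an equal volume of buffer. Male sex is stated for the mice of the diet groups, and the number of animals in a sample is not stated in the labels. In every group, viable F4/80-stained cells were sorted from a 10 mL cold wash of the cavity.

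The counts came as 1 matrix of 31253 genes with 4 barcode suffixes, called libraries 1 to 4 here. No label ties a library to a sample, so no genotype, diet or treatment was compared, and the same selection was applied to each library by itself. The 4 samples differ in genotype, diet or treatment, so a result seen in all 4 libraries is not replication. The libraries held 40321459, 74067998, 73429015 and 78083803 UMIs, with medians of 8195, 11515, 13306 and 12409 UMIs in the cells kept. Library 1 stood apart: it lost 1936 barcodes to the mitochondrial limit against 495, 296 and 495 in the others. In its Ccr2-high cells Xist stood at 499.97 CPM (UMI counts scaled to the same total in every cell set) with no UMI of the Y-linked genes Ddx3y and Eif2s3y, while the Ccr2-high cells of libraries 2, 3 and 4 held 0, 0 and 1 Xist UMIs in all and both Y-linked genes. Apoe, the gene deleted in 3 of the 4 groups, stood at 40.8, 988, 790.5 and 40902 CPM in the Ccr2-high cells and at 23.2, 792, 721 and 29239 CPM in the comparison cells of the 4 libraries, and no library was given a genotype from these values. Between libraries, 52 barcode sequences occurred in a pair of libraries, among them those of 1, 2, 1 and 1 Ccr2-high cells.

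Ccr2-high cells numbered 221, 814, 112 and 232 in libraries 1 to 4. These were 6.12% (exact 95% interval 5.36 to 6.95), 13.5% (12.7 to 14.4), 2.11% (1.74 to 2.53) and 3.92% (3.44 to 4.45) of the kept cells. Library 2 held the highest share and library 3 the lowest. All intervals given here cover counting error only, since cells of 1 library are not replicates. Their median depths were 10545, 11875, 11933.5 and 12010 UMIs, and their median Ccr2 counts 11, 5.5, 6 and 5 (the count that the selection itself used). Adgre1 was present with at least 2 UMIs in 61.1, 82.4, 71.4 and 84.9% of them, and absent from 18.6, 6.51, 16.1 and 6.47%.

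The comparison cells, chosen within the same library, passed the same quality limits and had at least 2 Adgre1 UMIs and no Ccr2 UMI; they numbered 1654, 3078, 4293 and 4684 and are called Ccr2-zero cells. Their median depths were 8382.5, 12647, 14002 and 12919.5 UMIs. They carried no limit on Cd74, Timd4 or the lymphocyte genes, so differences in class II, in large-macrophage genes linked to Timd4 and in B cell transcripts follow in part from the selection. Since the cells were chosen from these same counts, every difference below is a description with no test. Summed UMIs were scaled to CPM with the 13 genes of the selection left out of the totals, and ratios are log2 values of Ccr2-high over comparison cells.

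Values just inside and just outside the limits of the selection were as follows. Cells with exactly 3 Ccr2 UMIs (25, 158, 26 and 45 cells) held Ear2 at 8.27, 0, 26.9 and 0 CPM and H2-Aa at 2113, 4291, 3633 and 4462 CPM. Cells with exactly 2 that met every other limit (23, 204, 23 and 46 cells) held Ear2 at 6.14, 0, 0 and 0 CPM and H2-Aa at 2614, 4256, 3138 and 3737 CPM. At the Cd74 limit, cells with 20 to 29 UMIs (16, 35, 5 and 1 cells) held H2-Aa at 1621, 1371, 684 and 92.1 CPM, and those with 10 to 19 (26, 21, 6 and 2 cells) at 1413, 684, 515 and 192 CPM. The 5, 9, 4 and 3 Ccr2-high cells with exactly 1 Cd209a UMI held Ear2 at 749.5, 240.3, 1069 and 169 CPM and H2-Aa at 10353, 14151, 10617 and 3688 CPM. Cells with exactly 2 Cd209a UMIs that met every other limit occurred in libraries 1 and 3 (5 and 3 cells) and held Ear2 at 823 and 0 CPM. At the Cd209a limit Ear2 was above the level of all Ccr2-high cells in every library, so these few cells carry part of it.

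The label names these cells monocyte-derived small peritoneal macrophages marked by Ccr2, Ear2, Fcrls, Irf4 and H2-Aa. Ear2, a secreted ribonuclease of the eosinophil-associated family (chromosome 14, 44102654 to 44103534, plus strand, GRCm38), stood at 553, 16.3, 78.7 and 9.77 CPM in Ccr2-high cells, against 1.53, 0.175, 0.273 and 0.0797 CPM in Ccr2-zero cells. Fcrls, an Fc receptor-like scavenger receptor (chromosome 3, 87250758 to 87263738, minus strand), stood at 453, 33.6, 35.5 and 14.1 CPM in Ccr2-high cells, against 7.84, 1.12, 0.804 and 0.478 CPM in Ccr2-zero cells. Both were higher in each library, but in libraries 2 and 4 they lay in a small minority of cells, as did Fcrls in library 3. After each cell was thinned to 3000 UMIs, Ear2 had a UMI in 29.8, 1.61, 10.8 and 1.72% of Ccr2-high cells (intervals 23.8 to 36.4%, 0.862 to 2.74%, 5.71 to 18.1% and 0.472 to 4.36%), against 0.450, 0.0990, 0.0937 and 0.0430% of Ccr2-zero cells. Fcrls had one in 46.3, 3.85, 5.41 and 3.02% of Ccr2-high cells, against 2.25, 0.264, 0.164 and 0.107% of Ccr2-zero cells. B cells, which should lack both genes and whose median depths were 9199, 7044.5, 4798 and 6313 UMIs, gave 0.554, 0.186, 0 and 0% for Ear2 and 0.369, 0.186, 0 and 0.410% for Fcrls. Without thinning, the Ear2 shares of Ccr2-high cells were 36.7, 3.56, 14.3 and 2.59%. Reads of the closely related Ear1, Ear6, Ear10 and Ear14 summed to 0 UMIs, and reads shared between such copies may have been assigned to Ear2 or dropped.

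Irf4, the transcription factor of small macrophages and of type 2 dendritic cells (chromosome 13, 30749226 to 30766976, plus strand), set the cells apart least. It stood at 104, 31.4, 23.9 and 18.1 CPM in Ccr2-high cells, against 71.1, 26.7, 10.4 and 11.4 CPM in Ccr2-zero cells, and was detected after thinning in 24.3, 9.43, 6.31 and 6.90% of Ccr2-high cells, 19.2, 7.59, 3.33 and 3.46% of Ccr2-zero cells and 21.6, 11.5, 8.30 and 6.15% of B cells, which use it. H2-Aa, the class II alpha chain (chromosome 17, 34282744 to 34287823, minus strand), stood at 6725, 4714, 4899 and 4678 CPM in Ccr2-high cells, against 1240.1, 2578, 413 and 869 CPM in Ccr2-zero cells. Its 4 Ccr2-high values lay close together, while the Ccr2-zero value was highest in library 2 and lowest in library 3. Of the label's markers, H2-Aa, Ear2, Fcrls and Irf4 were thus higher in every library. Ear2 and Fcrls were most frequent in library 1, and Irf4 had the smallest ratio in each library. Origin from monocytes cannot be read from these counts. Genes of macrophages in general were near the level of Ccr2-zero cells: Csf1r, the growth factor receptor of macrophages, had a UMI after thinning in 83.9, 83.7, 73 and 77.2% of Ccr2-high cells, against 85.5, 81.6, 70.3 and 72.3% of Ccr2-zero cells, with 8.30, 4.82, 5.14 and 2.46% in B cells.

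**Figure D1:**
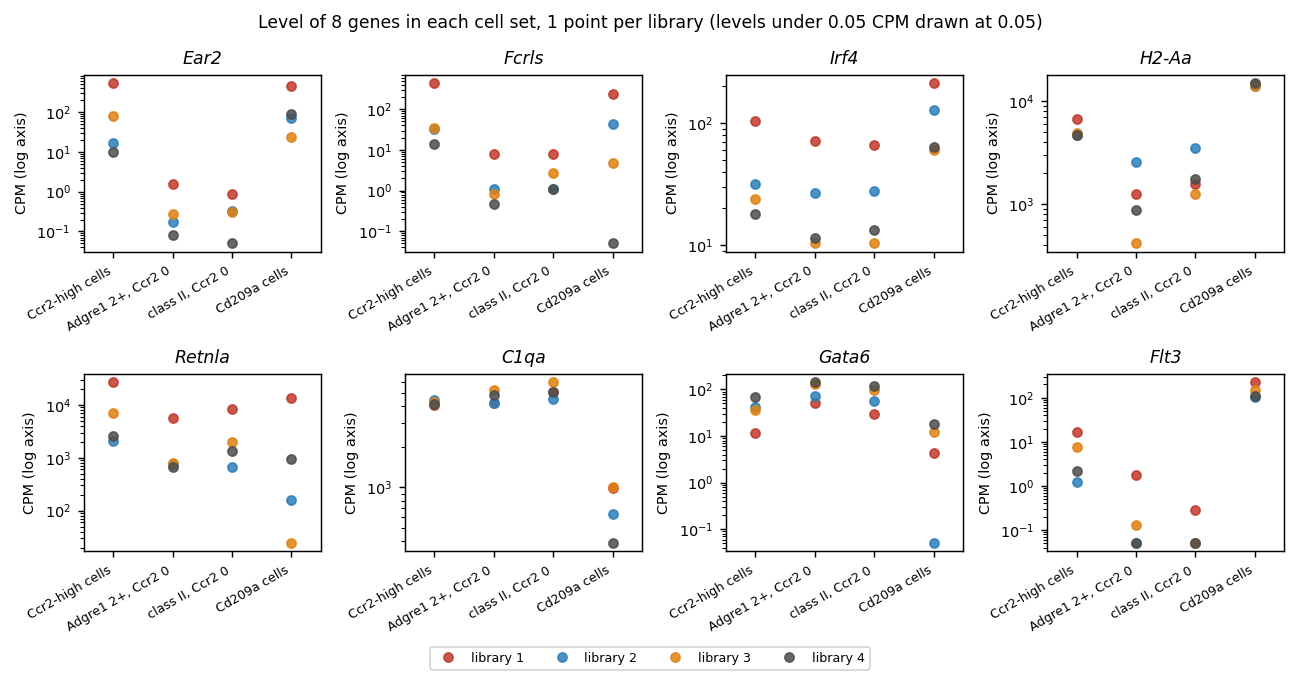
Each panel plots the level of 1 gene in CPM on a log axis, 1 point per library, in Ccr2-high cells, Ccr2-zero cells (Adgre1 at least 2), class II Ccr2-zero cells and Cd209a cells. Ear2 and Fcrls are above the Ccr2-zero sets in every library, with library 1 highest at 553 and 453 CPM, while C1qa of Ccr2-high cells lies near the Ccr2-zero sets and above the Cd209a cells.

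Against Ccr2-zero cells, 12 of 4851 genes tested were at least 2-fold higher in every library, which is 0.247% of the genes, and 16 were at least 2-fold lower, which is 0.33%, for 0.577% in either direction. A gene counted only if it reached 20 CPM in the higher cell set of each library. Of all genes tested, 20.8% lay above a log2 ratio of 0 in all 4 libraries and 12.8% below it. The 12 higher genes included 2 of the class II list, and the 16 lower ones 4 of the large peritoneal macrophage list. The smallest ratio of each of the 12 higher genes was in library 2, whose Ccr2-zero cells also had the highest H2-Aa level.

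Plbd1, Emb, Clec4a2, Olfm1 and H2-Eb1 had the largest median ratios on the higher side. Plbd1, which encodes a phospholipase B-like lysosomal protein (chromosome 6, 136612070 to 136661928, minus strand), came first. It stood at 227, 50.4, 160.4 and 42.3 CPM in Ccr2-high cells, against 17.2, 10.7, 2.04 and 2.26 CPM in Ccr2-zero cells, with log2 ratios of 3.72, 2.23, 6.28 and 4.22 and intervals from 2.05 to 2.43 in library 2 to 5.97 to 6.63 in library 3. After thinning it had a UMI in 35.8, 10.3, 25.2 and 10.8% of Ccr2-high cells, against 3.28, 3.17, 0.726 and 0.666% of Ccr2-zero cells. B cells, with 13.5, 9.46, 7.11 and 11.1%, matched or came near the Ccr2-high share in libraries 2 and 4, so the gene is not restricted to these cells.

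H2-Eb1, the class II beta chain whose promoter is shown above, stood at 4411, 2616, 3735 and 3037 CPM in Ccr2-high cells, against 679, 1197, 225 and 475 CPM in Ccr2-zero cells (log2 ratios 2.70, 1.13, 4.05 and 2.68). Ciita, the coactivator of class II genes, stood at 88.5, 74, 76.3 and 62.3 CPM in Ccr2-high cells, against 32.7, 35.9, 3.38 and 7.33 CPM in Ccr2-zero cells (log2 ratios 1.43, 1.04, 4.49 and 3.08). Ciita was nearly level between the 4 sets of Ccr2-high cells, and the Ccr2-zero cells of libraries 3 and 4 held the least. Class II genes are tied to the selection through Cd74, and with Ccr2-high cells also required to hold 2 Adgre1 UMIs neither gene met the 2-fold limit in all libraries. Ciita also missed it with no Cd209a UMI allowed, with a mitochondrial limit of 5% and in cells with no Ear2 or Fcrls UMI. With cells thinned to 3000 UMIs, Ciita missed it in the first random draw and not in the second.

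Retnla, which encodes the secreted protein RELM-alpha made by alternatively activated macrophages (chromosome 16, 48842551 to 48844461, plus strand), was another of the higher genes. It stood at 26698, 2069.8, 7145 and 2624 CPM in Ccr2-high cells, against 5558, 775, 791 and 654 CPM in Ccr2-zero cells, with log2 ratios of 2.26, 1.42, 3.17 and 2.0. Retnla was the most abundant of the higher genes in libraries 1 and 3, and H2-Eb1 was above it in libraries 2 and 4. The libraries differed more than the cell sets did: the Ccr2-zero cells of library 1 were above the Ccr2-high cells of libraries 2 and 4. After thinning, Retnla had a UMI in 96.3, 30.6, 44.1 and 46.6% of Ccr2-high cells, against 87.8, 22.2, 19.7 and 18.4% of Ccr2-zero cells, with 47.6, 8.16, 11.5 and 7.38% in B cells and 60.9, 17.2, 12.9 and 6.36% in T cells (median depths 5009, 5155, 4071 and 5037.5 UMIs). The lymphocyte shares are the background against which the others are read, and it was highest in library 1.

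Clec4a2, an inhibitory C-type lectin receptor of myeloid cells, stood at 115, 55.8, 122 and 99.9 CPM in Ccr2-high cells, against 13, 27.8, 8.39 and 14.1 CPM in Ccr2-zero cells, with log2 ratios of 3.14, 1.00, 3.86 and 2.82. It had a UMI after thinning in 22.9, 13, 28.8 and 22% of Ccr2-high cells, against 3.73, 7.30, 2.16 and 3.65% of Ccr2-zero cells and in no B or T cell. Its library 2 ratio lay at the limit (interval 0.85 to 1.15), and 9 of 22 alternatives ended the call. Emb, the cell adhesion protein embigin, stood at 160.2, 45.1, 111 and 57.9 CPM in Ccr2-high cells, against 15.7, 14.9, 8.33 and 7.32 CPM in Ccr2-zero cells, and T cells, which carry it, had a UMI in 63.2, 67.7, 62.9 and 58.2%. Olfm1, a secreted glycoprotein best known from neurons, stood at 144, 25.7, 44.7 and 21.4 CPM in Ccr2-high cells, against 12.3, 9.18, 4.76 and 3.87 CPM in Ccr2-zero cells. All 3 genes were highest in Ccr2-high cells of library 1 or 3 and closest to Ccr2-zero cells in library 2.

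Plxnd1, a semaphorin receptor, stood at 228, 51.9, 64.8 and 33.3 CPM in Ccr2-high cells, against 32.6, 20.7, 5.06 and 6.22 CPM in Ccr2-zero cells. The remaining higher genes were Skint3 (median log2 ratio 2.41), Plekho1 (2.25), Sirpb1c (1.94) and Ptms (1.54). Sirpb1c belongs to a group of near-identical receptor genes with Sirpb1a and Sirpb1b, and Skint3 to a gene family of its own, so the counting could have split their reads. With Ccr2-high cells also required to hold 2 Adgre1 UMIs, 4 genes in place of 12 met the limit. With no Cd209a UMI allowed, which left 1358 of the 1379 cells, 8 met it, and Clec4a2, Olfm1, Ciita and Ptms did not, at median log2 ratios of 2.99, 2.73, 2.25 and 1.48.

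**Figure D2:**
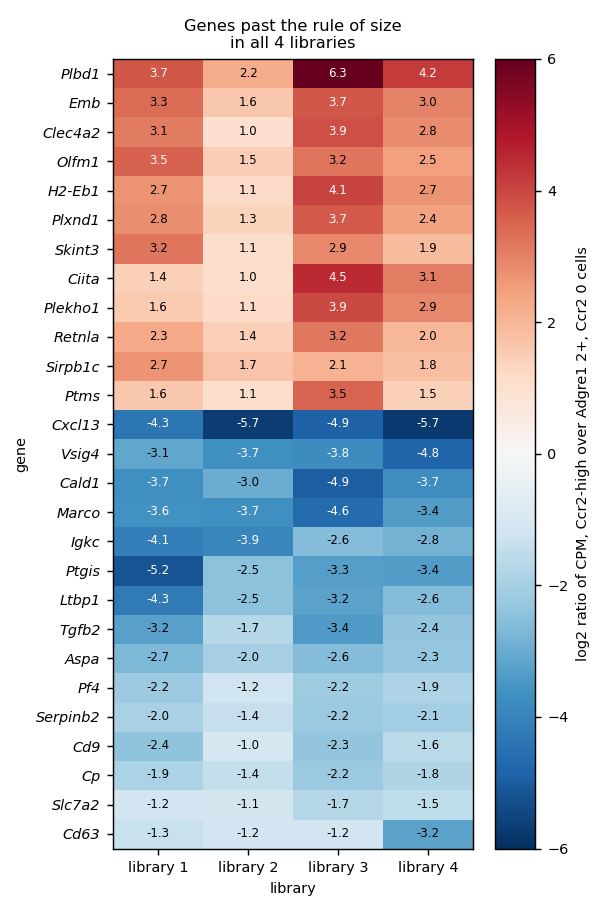
The heat map gives the log2 ratio of CPM, Ccr2-high over Ccr2-zero cells, of each named gene (1 per line) in each of the 4 libraries (columns), with red for higher and blue for lower in Ccr2-high cells. Higher genes are palest in library 2, where Clec4a2 is at 1.00, and Cxcl13 has the deepest blue, with a median of -5.27.

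Cxcl13 had the smallest median ratio on the lower side. Cxcl13, the chemokine that attracts B cells in the cavity (chromosome 5, 95956951 to 95961068, plus strand), stood at 28.8, 8.21, 120.3 and 41.6 CPM in Ccr2-high cells, against 582, 424, 3474 and 2201 CPM in Ccr2-zero cells, with log2 ratios of -4.34, -5.69, -4.85 and -5.72. After thinning it had a UMI in 6.42, 1.24, 17.1 and 11.2% of Ccr2-high cells, against 21.8, 11.1, 64.3 and 50.5% of Ccr2-zero cells. B cells gave 4.61, 1.48, 16.6 and 11.5%, so the Ccr2-high share was at or near this background. The source of the B cell signal was not tested.

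Vsig4, a complement receptor of resident macrophages, stood at 28.8, 5.17, 29.3 and 11.9 CPM in Ccr2-high cells, against 248, 67.4, 408 and 337 CPM in Ccr2-zero cells. Marco, a scavenger receptor for bacteria and particles, stood at 8.16, 15.2, 15.4 and 33.3 CPM in Ccr2-high cells, against 102, 196, 381 and 343 CPM in Ccr2-zero cells, and its share after thinning (3.21, 2.73, 5.41 and 5.60% in Ccr2-high cells, against 8.69, 11.6, 31 and 26.1% in Ccr2-zero cells) was near that of B cells (2.21, 2.04, 4.35 and 2.87%). In each library the Ccr2-zero cells held at least 8-fold more of both transcripts. Tgfb2, a transforming growth factor of large peritoneal macrophages, stood at 26.6, 30.9, 33.2 and 67.7 CPM in Ccr2-high cells, against 253, 99.7, 353 and 351 CPM in Ccr2-zero cells. Ltbp1, which binds latent forms of that factor family in the matrix, stood at 6.44, 16.1, 54.8 and 85.1 CPM in Ccr2-high cells, against 125, 90.1, 507 and 513 CPM in Ccr2-zero cells. Their median log2 ratios were -2.81 and -2.90.

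Further lower genes were Cald1 (actin-binding caldesmon, median log2 ratio -3.70), Ptgis (prostacyclin synthase, -3.33), Aspa (aspartoacylase, -2.46), Pf4 (platelet factor 4, -2.01), Serpinb2 (an inhibitor of plasminogen activators, -2.01) and Cd9 (a tetraspanin, -1.97). Cp (ceruloplasmin), Slc7a2 (a cationic amino acid transporter) and Cd63 (a lysosomal tetraspanin) had median log2 ratios of -1.86, -1.34 and -1.26, and the sixteenth entry is a gene model without a symbol. Pf4 stood at 257, 768, 925 and 1138 CPM in Ccr2-high cells, against 1181, 1772, 4106 and 4169 CPM in Ccr2-zero cells. After thinning Pf4 had a UMI in 37.2, 47.1, 55 and 68.1% of Ccr2-high cells, against 74, 67.1, 91.5 and 95.1% of Ccr2-zero cells, with 12.7, 13.2, 31.2 and 29.5% in B cells. Cd9 had one in 11.5, 41.6, 31.5 and 46.6% of Ccr2-high cells, against 45.1, 66, 87.1 and 87.9% of Ccr2-zero cells, with 13.3, 10.6, 16.2 and 18.9% in B cells, so in library 1 its Ccr2-high share was at background.

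Igkc, the immunoglobulin kappa constant gene of B cells, was also lower, at 72.2, 12.3, 10 and 6.15 CPM in Ccr2-high cells, against 1232, 183, 61 and 43.8 CPM in Ccr2-zero cells. Ccr2-zero cells carried no limit on B cell genes, and in library 1 they held Cd79a, the signalling chain of the B cell receptor, at 495 CPM. With Cd79a and Cd3 genes also required to be 0 in the Ccr2-zero cells, the median log2 ratio of Igkc was 0.15, in the other direction. The 10 B cell markers summed to 300.2, 65.1, 81 and 62.6 CPM in Ccr2-high cells, against 4491, 489, 189.7 and 149 CPM in Ccr2-zero cells. The 10 T cell markers summed to 47.2, 5.37, 9.25 and 3.26 CPM in Ccr2-high cells, against 110.1, 11.8, 11 and 5.88 CPM in Ccr2-zero cells. These lists include Cd79a and the Cd3 genes, which the selection held at 0 in Ccr2-high cells and not in Ccr2-zero cells. Part of both differences was thus fixed by the selection.

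Among lists with at least 2 genes tested, that of MHC class II presentation had the highest median. Of 12 class II genes, 7 passed the level filter, and all 7 lay above 0 in every library, beside 20.8% of all genes tested. Of them 2 (H2-Eb1 and Ciita) were called higher, beside 0.247% of all genes tested. The list's median log2 ratio was 2.26, beside 0.04 for all genes. H2-Ab1, the class II beta chain partner of H2-Aa, stood at 6073, 4115, 4610.3 and 4346 CPM in Ccr2-high cells, against 995, 2104, 391 and 795 CPM in Ccr2-zero cells. H2-DMa, which helps load peptides, had log2 ratios of 1.91, 0.57, 1.86 and 1.26, and Ctss, the protease that trims the invariant chain, of 0.24, 0.20, 0.29 and 0.15. Class I genes did not stand apart: of 10 tested none was called, and the median was 0.05.

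The large peritoneal macrophage list had 19 of 23 genes tested, of which 4 (Ltbp1, Cxcl13, Vsig4 and Tgfb2) were called lower, beside 0.33% of all genes tested. Of the list, 17 lay below 0 in every library, beside 12.8% of all genes tested, and none above. Its median was -1.09. Gata6, the factor that defines these macrophages, stood at 11.6, 41.4, 36.2 and 70.2 CPM in Ccr2-high cells, against 51.4, 73.6, 133 and 142 CPM in Ccr2-zero cells. Prg4, which encodes the lubricant proteoglycan 4, stood at 776, 2123, 1569 and 2057 CPM in Ccr2-high cells, against 2384, 2728, 3973 and 3936 CPM in Ccr2-zero cells. Both were lower in every library without meeting the 2-fold limit in all. Fn1, fibronectin, was level, at 8206, 11698, 9092 and 10000.1 CPM in Ccr2-high cells, against 9519.6, 11681, 9377 and 9232 CPM in Ccr2-zero cells. Gata6 had a UMI after thinning in 3.21, 10.7, 6.31 and 13.8% of Ccr2-high cells, against 13.3, 18.3, 31.3 and 31.8% of Ccr2-zero cells and 0.554, 0.186, 0.791 and 2.87% of B cells.

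The pan-macrophage list had 11 of 14 genes tested and none called, with a median of -0.10. C1qa, a chain of complement C1q, stood at 4069, 4427, 4291 and 4134 CPM in Ccr2-high cells, against 4175, 4184, 5221 and 4806 CPM in Ccr2-zero cells. Aif1, an actin-binding protein of activated macrophages, was the list's exception, with log2 ratios of 0.89, 0.43, 1.95 and 1.33.

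The list of S100, annexin and cytoskeletal genes had all 16 members tested, 12 above 0 in every library and none below, none called, and a median of 0.75. Of all genes tested, 20.8% lay above 0 in every library and 12.8% below. S100a4, a calcium-binding protein of motile cells, stood at 972, 824, 1230.1 and 797 CPM in Ccr2-high cells, against 229, 575, 385 and 289.99 CPM in Ccr2-zero cells. Coro1a, an actin regulator of leukocytes, stood at 330.3, 257, 376 and 186 CPM in Ccr2-high cells, against 196, 128, 25.5 and 19 CPM in Ccr2-zero cells. Tmsb10, which binds actin monomers, had log2 ratios of 1.94, 0.84, 2.86 and 2.15. Each was higher in all libraries and fell short of 2-fold in at least 1.

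**Figure D3:**
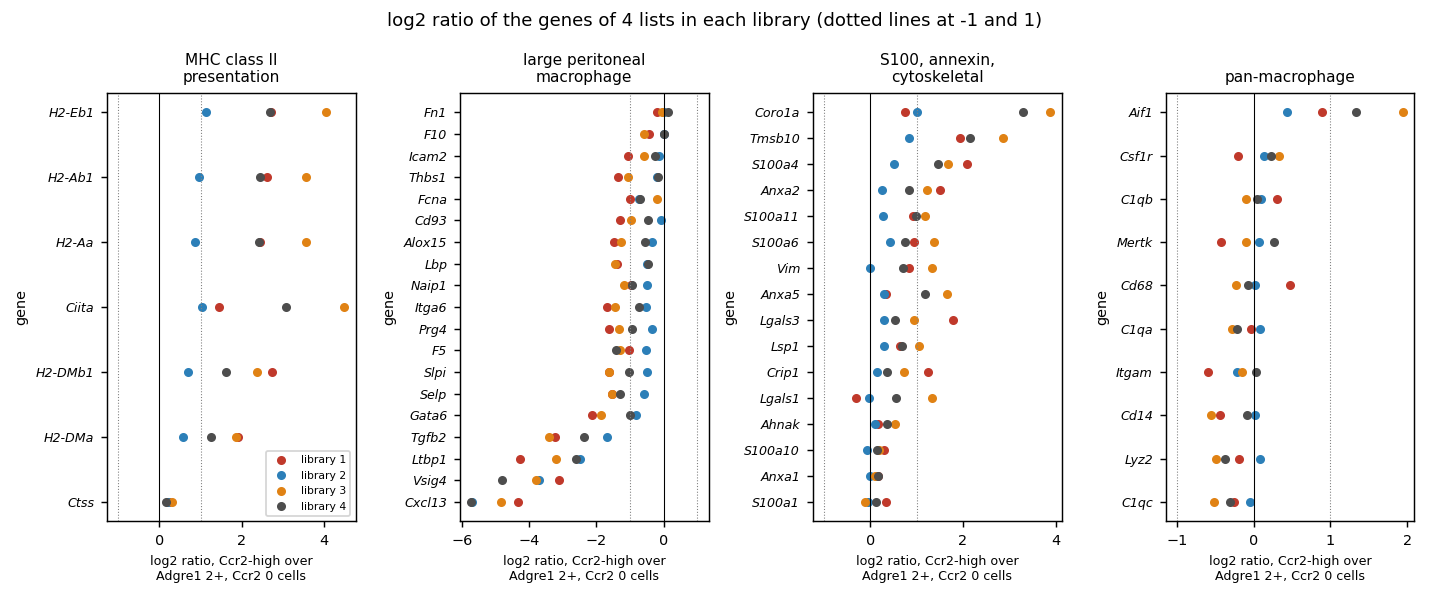
Each panel gives the log2 ratio (Ccr2-high over Ccr2-zero cells, horizontal axis) of tested genes of 1 list (not every gene is drawn), 1 point per library, with dotted lines at -1 and 1. Class II and most S100, annexin and cytoskeletal genes lie right of 0, large peritoneal macrophage genes left of it down to Cxcl13, and pan-macrophage genes around 0.

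Of 10 classical monocyte markers 7 were tested, none was called, none lay on the same side of 0 in all 4 libraries, and the median log2 ratio was 1.07. Chil3, a chitinase-like secreted protein, stood at 917, 3394, 1610.3 and 1042 CPM in Ccr2-high cells, against 1019, 2253, 504 and 65.4 CPM in Ccr2-zero cells, so it was higher in libraries 2 to 4 and not in library 1. Ly6c2, the defining surface gene of classical monocytes, stood at 8.16, 7.40, 29.3 and 7.60 CPM in Ccr2-high cells, against 1.20, 5.76, 0.707 and 0.367 CPM in Ccr2-zero cells, and had a UMI after thinning in 0.917, 1.49, 6.31 and 2.16% of Ccr2-high cells, with 0.923, 1.11, 0.791 and 1.23% in B cells. Its share in libraries 1 and 2 was thus near the background, and its level was under the filter. Cx3cr1, a chemokine receptor of non-classical monocytes and of many tissue macrophages, stood at 33.9, 10.2, 57.8 and 17.7 CPM in Ccr2-high cells, against 1.26, 4.49, 2.73 and 2.98 CPM in Ccr2-zero cells.

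Of 7 chemokines tested, Cxcl13 and Pf4 were called lower, beside 0.33% of all genes tested. Ccl6 and Ccl9 lay above 0 in every library, as did 20.8% of all genes tested. Ccl6, a chemokine made by myeloid cells, stood at 4709, 2349.6, 3196 and 2014 CPM in Ccr2-high cells, against 2283, 2052, 1455 and 1124 CPM in Ccr2-zero cells. Among 9 C-type lectin receptor genes tested, Clec4a2 was called higher and 6 lay above 0 in all libraries. The shares over all genes tested were 0.247% and 20.8%. Clec12a, an inhibitory lectin, had log2 ratios of 3.05, 0.85, 3.64 and 2.25, and Mrc1, the mannose receptor, of 0.69, 0.61, 2.44 and 2.17. Clec4d and Clec4e, which sense microbial glycolipids, had median log2 ratios of -0.52 and -0.26. Of 7 chemokine receptor genes tested none was called. Of 18 transcription factor genes tested none was called; Irf5, a factor of inflammatory macrophages, had log2 ratios of 0.48, 0.30, 0.93 and 0.63.

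Of 12 alternative activation genes 6 were tested, and Retnla alone was called. Arg1, the arginase of such macrophages, went the other way, at 163, 422, 128 and 128 CPM in Ccr2-high cells, against 384, 570.4, 317 and 289 CPM in Ccr2-zero cells. Lipid-handling genes gave no call among 13 tested, though Fabp4, a fatty acid-binding protein, stood at 38.7, 201, 308 and 373 CPM in Ccr2-high cells, against 191, 396, 1507 and 1257 CPM in Ccr2-zero cells. Axl, a receptor for apoptotic cells, stood at 204, 71.3, 71 and 43.4 CPM in Ccr2-high cells, against 81.7, 47, 9.34 and 7.33 CPM in Ccr2-zero cells. Of 10 complement genes tested none was called, with a median of -0.06, and of 11 coagulation and acute-phase genes tested Serpinb2 was called lower, with a median of -0.22. C4b, a complement component, had log2 ratios of -1.08, -0.24, -1.82 and -1.55 and Saa3, a serum amyloid A gene, of -1.93, -0.67, -2.04 and -2.49. Of the lists, no gene for T cells, NK cells, mast cells, eosinophils, stromal cells, platelets, migratory dendritic cells or the cell cycle passed the filter. The selection genes could not pass it, as they were left out. Among them were Cd3d, Cd3e and Cd3g of the T cell list and Mki67, Top2a, Birc5 and Ube2c of the cell-cycle list.

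To set Ccr2 apart from class II, Ccr2-high cells were also compared with cells that met every other limit of the selection, had at least 2 Adgre1 UMIs and no Ccr2 UMI. These class II Ccr2-zero cells numbered 344, 1715, 462 and 811 and are part of the Ccr2-zero cells above, so the comparisons share cells. Of 4752 genes tested, 6 (0.126%) were called higher and 3 (0.0631%) lower, 0.189% in all; 22% lay above 0 in all 4 libraries and 8.31% below it. The higher genes were Plbd1, Emb, Olfm1, Plxnd1, Ptms and Sirpb1c, with median log2 ratios of 4.15, 2.41, 2.25, 2.09, 1.8 and 1.31. Plbd1 stood at 227, 50.4, 160.4 and 42.3 CPM in Ccr2-high cells, against 7.84, 11.8, 5.17 and 3.77 CPM in class II Ccr2-zero cells. Emb stood at 160.2, 45.1, 111 and 57.9 CPM in Ccr2-high cells, against 9.87, 18.8, 14.4 and 15.6 CPM in class II Ccr2-zero cells. No class II gene was called, yet 6 of the 7 tested lay above 0 in every library, with a median of 1.68 beside 0.07 for all genes.

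Class II transcripts thus differed also where both sets had at least 20 Cd74 UMIs. H2-Aa stood at 6725, 4714, 4899 and 4678 CPM in Ccr2-high cells, against 1573, 3504, 1249 and 1759 CPM in class II Ccr2-zero cells. Median Cd74 counts were 84, 121, 123.5 and 131.5 UMIs in Ccr2-high cells, against 37, 94, 44 and 48 in class II Ccr2-zero cells, so Cd74 itself was not matched. Retnla stood at 26698, 2069.8, 7145 and 2624 CPM in Ccr2-high cells, against 8530.2, 667, 2009 and 1347 CPM in class II Ccr2-zero cells, and fell short of 2-fold in library 4 alone. Cxcl13 was called lower, at 28.8, 8.21, 120.3 and 41.6 CPM in Ccr2-high cells, against 128, 86.5, 1888 and 1104 CPM in class II Ccr2-zero cells. Ltbp1 and Aspa were the other lower genes, with median log2 ratios of -2.32 and -1.87. Of 18 large peritoneal macrophage genes tested 16 lay below 0 in every library, beside 8.31% of all genes tested, with a median of -0.87.

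Cells with at least 3 Cd209a UMIs, otherwise under the same limits and with none on Ccr2, served as the dendritic cell side. They numbered only 18, 27, 44 and 37, and their levels rest on few UMIs. Flt3, the growth factor receptor of dendritic cells, stood at 16.8, 1.22, 7.71 and 2.17 CPM in Ccr2-high cells, against 223, 104, 147 and 112 CPM in Cd209a cells. C1qa stood at 4069, 4427, 4291 and 4134 CPM in Ccr2-high cells, against 983, 634, 1003 and 387 CPM in Cd209a cells. Flt3 had a UMI after thinning in 0.459, 0.124, 2.70 and 0.862% of Ccr2-high cells, against 50, 22.2, 40.9 and 18.9% of Cd209a cells. Ccr7, the receptor of migrating dendritic cells, had none in 218, 806, 111 and 232 thinned Ccr2-high cells; a count of 0 (3 counts of the total) allows up to 1.38, 0.372, 2.70 and 1.29% of cells with a UMI at this depth, and sets no limit on cells that express the gene.

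Of 5099 genes tested, 244 (4.79%) were called higher in Ccr2-high cells than in Cd209a cells and 157 (3.08%) lower, 7.86% in all. Of 11 pan-macrophage genes tested 8 were higher, among them Csf1r, Mertk, Lyz2, Cd14, C1qa, C1qb and C1qc, with a median of 2.22 beside 0.05 for all genes. Of 8 type 2 dendritic cell genes tested 7 were lower (Flt3, Kmo, Dpp4, Napsa, Tnip3, Klrd1 and Clec10a), with a median of -4.02. Cd209a is a gene of that list, and its count set the limits of both cell sets. Differences in dendritic cell and macrophage genes here thus follow in part from the selection. Of 17 large peritoneal macrophage genes tested 13 were higher, with a median of 2.01. Of 10 class II genes tested 6 were lower (H2-Aa, H2-Eb1, H2-DMb2, H2-Oa, H2-Ob and Ciita), with a median of -1.70. H2-Aa stood at 6725, 4714, 4899 and 4678 CPM in Ccr2-high cells, against 14644, 13945, 13989.8 and 15221 CPM in Cd209a cells, so Ccr2-high cells lay between Ccr2-zero and Cd209a cells in class II level.

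Single genes ran the same way. Klrd1, a lectin-like receptor found on natural killer cells and some dendritic cells, stood at 5.15, 3.75, 26.2 and 1.81 CPM in Ccr2-high cells, against 142, 273, 501 and 303 CPM in Cd209a cells. Kmo, an enzyme of tryptophan breakdown, stood at 7.30, 0.811, 3.08 and 0.724 CPM in Ccr2-high cells, against 142, 107, 98.8 and 86.5 CPM in Cd209a cells. H2-Oa, which restrains peptide loading, stood at 8.16, 3.45, 20.1 and 3.62 CPM in Ccr2-high cells, against 318, 236, 311 and 320.5 CPM in Cd209a cells. Klrb1b, Ctnnd2, Sirpb1a, Ddr1 and Il18rap were also among the 8 lowest, and where a set held no UMI the ratio is bounded by the 3-count floor, which left Klrb1b at a median of at most -5.76. Apoc4, an apolipoprotein, stood at 349.6, 128, 59.4 and 56.1 CPM in Ccr2-high cells, against 17.2, 15.3, 4.82 and 2.54 CPM in Cd209a cells. Plcb1, a phospholipase C, stood at 86.8, 97.6, 82.5 and 107 CPM in Ccr2-high cells, against 0, 15.3, 9.64 and 0 CPM in Cd209a cells. Scarf1, Fas, Mdm1, S1pr1, Fpr2 and Selenbp1 were the other most strongly higher genes, each with at most 5 UMIs per library in Cd209a cells.

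Of the label's markers, Ear2 lay on different sides of Cd209a cells in different libraries, and Irf4 was lower than in Cd209a cells in each. Ear2 stood at 553, 16.3, 78.7 and 9.77 CPM in Ccr2-high cells, against 451, 70.5, 24.1 and 91.6 CPM in Cd209a cells, and Irf4 at 104, 31.4, 23.9 and 18.1 CPM in Ccr2-high cells, against 215, 129, 60.3 and 63.6 CPM in Cd209a cells. Irf4 was called lower, with Clec10a, Mgl2, Itgax and Clec4b1 of the same small macrophage list, and Retnla was called higher. Plbd1, Emb and Olfm1, which led the comparison with Ccr2-zero cells, were higher still in Cd209a cells, Plbd1 at 889, 763, 557 and 748 CPM. After thinning, Plxnd1, Ptms, Plekho1, Skint3, Sirpb1c, Ciita and H2-Eb1 also had a UMI in a larger share of Cd209a cells in each library. Ptms had one in 17.9, 5.21, 18.9 and 7.33% of Ccr2-high cells, against 55.6, 55.6, 70.5 and 73% of Cd209a cells. Sirpb1c was nearly level in library 3 (13.5% of Ccr2-high, 13.6% of Cd209a cells). Clec4a2 and Retnla had a smaller share in Cd209a cells in each library, nearly level for Clec4a2 in library 4.

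Ear2 varied among Ccr2-high cells of different Ccr2 count. With 10 or more Ccr2 UMIs (117, 176, 35 and 46 cells), Ear2 stood at 873, 63.1, 85.2 and 42.5 CPM, beside 103, 2.83, 116 and 1.58 CPM with 5 to 9 and 13, 0.608, 39.2 and 0 CPM with 3 to 4. Ear2 was highest in the top class in libraries 1, 2 and 4 and in the middle class in library 3. H2-Aa stood at 9143, 5871, 7643 and 6038 CPM with 10 or more, beside 3502, 4496, 3741 and 4369 CPM with 5 to 9, 2302, 4176, 3911 and 4229 CPM with 3 to 4 and 1679, 3557, 1308 and 1817 CPM in cells of the same limits with no Ccr2 UMI, which are not Ccr2-high cells. It was highest in the top class in each library, while the lower classes of Ccr2-high cells lay close together in libraries 2 to 4. Retnla stood at 33019.5, 4776, 9355 and 4338 CPM with 10 or more, beside 8527, 656, 1997 and 1379 CPM with none. Gata6 stood at 4.30, 30.5, 33 and 74.8 CPM with 10 or more, beside 12.8, 48.3, 40.2 and 55.9 CPM with 5 to 9, 42.2, 40.1, 35 and 87.3 CPM with 3 to 4 and 27.7, 54.1, 97.7 and 118 CPM with none. It was lower at 10 or more than with none, but within Ccr2-high cells it fell in step with the Ccr2 class in library 1 alone. Median depths were 12039, 12520, 10636 and 12368 UMIs with 10 or more, beside 9281, 11420, 12242.5 and 12483 with 3 to 4 and 9420.5, 12063, 14053 and 12520 with none, and the part of depth in these differences was not tested.

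**Figure D4:**
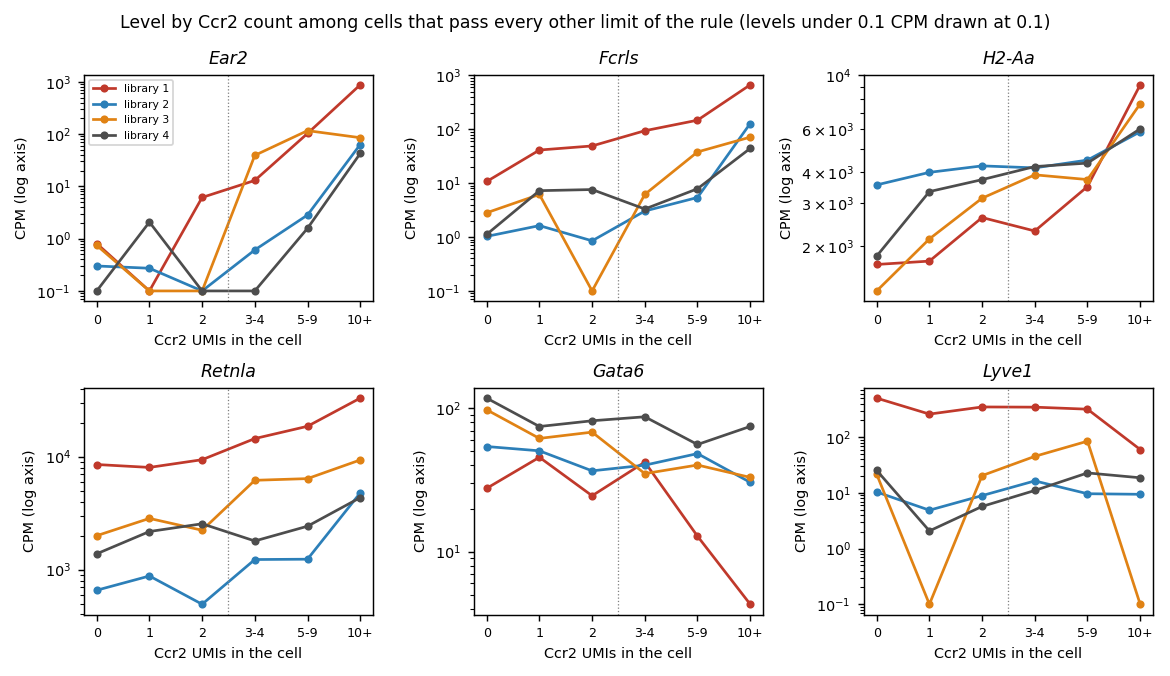
Levels in CPM (log axis) of 6 genes are plotted by the number of Ccr2 UMIs in the cell (horizontal axis), 1 line per library, among cells that met every other limit; the dotted line marks the selection. Ear2, Fcrls, H2-Aa and Retnla end higher at 10 or more Ccr2 UMIs than at 0 in each library, and Gata6 ends lower.

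When only cells with 10 or more Ccr2 UMIs were kept, a choice made after the values were seen, 42 of 4950 genes tested (0.848%) were called higher than in Ccr2-zero cells and 23 (0.465%) lower. The genes named here were picked from them after their values were seen. Ltb4r1, the receptor for leukotriene B4, stood at 79.5, 44.2, 107 and 25.5 CPM in these cells, against 0.532, 0.948, 0.547 and 0.223 CPM in Ccr2-zero cells. Ramp1, a partner of the receptor for the neuropeptide CGRP, stood at 97.4, 33, 38.5 and 28.9 CPM in these cells, against 1.66, 1.12, 0.225 and 0.239 CPM in Ccr2-zero cells. Batf3, a transcription factor best known from type 1 dendritic cells, stood at 236, 81.1, 79.7 and 37.4 CPM in these cells, against 14.1, 16, 4.50 and 5.34 CPM in Ccr2-zero cells. Ear2, Fcrls, H2-Aa, H2-Ab1, Clec12a, Coro1a and Tmsb10 passed the rule here and not with all Ccr2-high cells. Fabp4 and Cd5l, an apoptosis inhibitor made by resident macrophages, were among the lower genes, with Cd5l at 102, 516, 104 and 289 CPM in these cells, against 814, 1272, 925 and 714 CPM in Ccr2-zero cells.

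Ccr2-high cells differed by whether they carried Ear2 or Fcrls. Without thinning, 140, 59, 26 and 16 cells, or 63.3, 7.25, 23.2 and 6.9%, held a UMI of either gene. Retnla stood at 34693, 15558, 15592 and 9138 CPM in the cells with such a UMI, against 8899.8, 998, 4997 and 2159 CPM in the cells without. H2-Aa stood at 8391, 7305, 7703 and 5099 CPM with, against 3016, 4509, 4187 and 4648 CPM without. Both were higher with such a UMI in each library. Chil3 was lower, at 238, 974, 179 and 217 CPM with, against 2430.4, 3586, 1974 and 1101 CPM without. Prg4 was lower too, at 369, 854, 475 and 1403 CPM with, against 1682, 2224, 1848 and 2104 CPM without. Median depths were 11992.5, 11256, 9255 and 11148 UMIs with, against 8385, 11928, 12242.5 and 12118.5 UMIs without, so the cells with a UMI were the deeper ones in library 1 only.

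**Figure D5:**
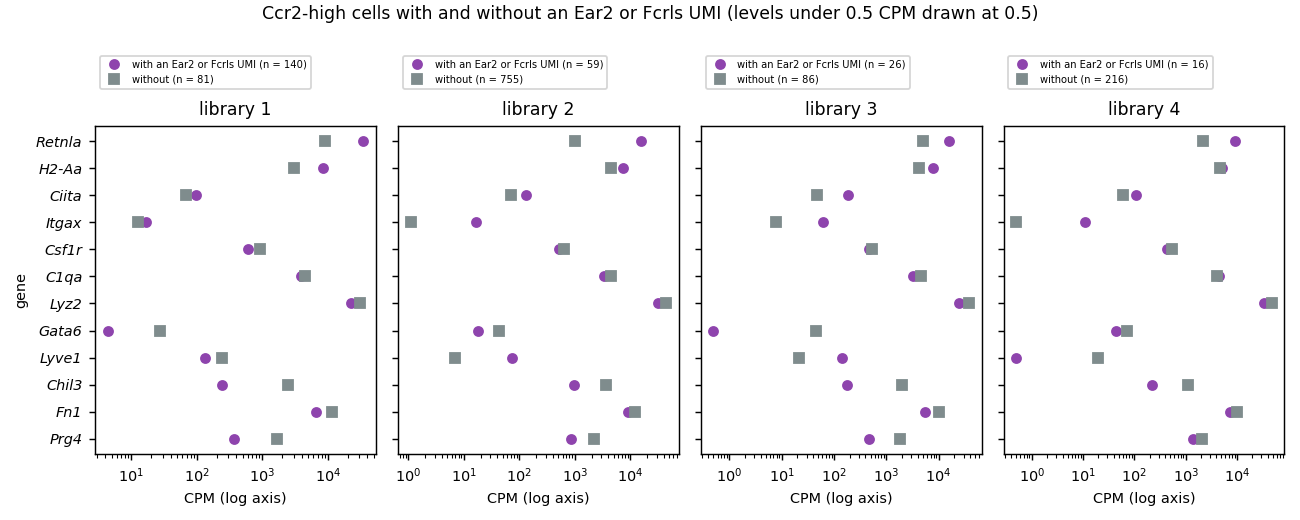
For each library, the level of 12 genes in CPM (log axis) is plotted for Ccr2-high cells with an Ear2 or Fcrls UMI (circles, given first in the legend) and without one (squares). Retnla, H2-Aa and Ciita lie further right with such a UMI in all libraries, and Chil3, Fn1 and Prg4 further left.

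In cells with no UMI of either gene, 2 of 4819 genes tested (0.0415%) were called higher than in Ccr2-zero cells, Plbd1 and H2-Eb1, and 13 (0.27%) lower. Emb, Sirpb1c and Retnla no longer met the limit there, at median log2 ratios of 2.11, 1.78 and 1.20. Of the named lower genes Cd9, Cp and Cd63 no longer met it, and Ighm, an immunoglobulin heavy chain gene, was an added one. Fcrls and Ear2 occurred together: after thinning, Fcrls had a UMI in 84.6, 53.8, 25 and 50% of Ccr2-high cells with Ear2 (of 65, 13, 12 and 4 cells), against 30.1, 3.03, 3.03 and 2.19% of those without. Retnla had one in 100.00, 93.5, 100.00 and 100.00% of cells with Fcrls (of 101, 31, 6 and 7 cells), against 93.2, 28.1, 41 and 44.9% of those without. Of all kept cells with at least 2 UMIs of Ear2 and Fcrls together (230, 66, 37 and 28 cells), 52.6, 59.1, 43.2 and 21.4% were Ccr2-high cells and 8.7, 10.6, 27 and 14.3% were Ccr2-zero cells.

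Ccr2-high cells were also split by Adgre1. Ear2 stood at 426, 7.82, 46.1 and 5.99 CPM in those with at least 2 Adgre1 UMIs, against 781, 72.7, 199 and 46.6 CPM in those with at most 1. H2-Aa stood at 5936, 4318, 3925 and 4548 CPM with at least 2, against 8147, 7344, 8497 and 5946 CPM with at most 1. Prg4 stood at 969.9, 2213, 1842 and 2099.5 CPM with at least 2, against 427, 1525, 565 and 1643 CPM with at most 1. Chil3 stood at 1169.6, 3378, 1889 and 992 CPM with at least 2, against 463, 3498, 583 and 1530.1 CPM with at most 1, and Retnla at 25911, 1704, 7176 and 2400.4 CPM with at least 2, against 28115, 4497, 7032 and 4796 CPM with at most 1. Cells with at most 1 Adgre1 UMI had more Ear2 and H2-Aa and less Prg4 in each library, while Chil3 was lower in libraries 1 and 3 and higher in libraries 2 and 4, and Retnla was higher in libraries 1, 2 and 4 and not in library 3. Of the type 2 dendritic cell list, Flt3, Zbtb46, Napsa and Clec10a were looked at in this split, and not every gene of the list. Napsa and Clec10a were higher in each library with at most 1 Adgre1 UMI. Zbtb46 rested on few UMIs in every library and was nearly level in library 1. Flt3 rested on few UMIs in libraries 2 to 4. No direction in single libraries is drawn from such low counts. Flt3 stood at 21.7, 6.19, 21.7 and 7.77 CPM with at most 1, against 14, 0.467, 3.92 and 1.6 CPM with at least 2. Napsa stood at 110.7, 174.9, 405.3 and 186.4 CPM with at most 1, against 56.8, 101.7, 134.3 and 117.3 CPM with at least 2. Whether dendritic cells were among these cells was not tested. Cells with at most 1 Adgre1 UMI were shallower. Their median depths were 9132.5, 9446, 7654.5 and 6320 UMIs, beside 10928, 12336, 13097.5 and 12655 with at least 2.

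Retnla was the most variable gene among Ccr2-high cells. Of 1512 genes with a mean of at least 0.2 UMIs per cell thinned to 3000 UMIs, 39 had a Fano factor (variance over mean, near 1 for counting noise alone) over 2 in each library, and the median gene had 1.11, 1.08, 1.12 and 1.09. Retnla had Fano factors of 65.6, 63, 93 and 45.1. Chil3 had 12.4, 11.4, 16.8 and 6.62, and the class II genes H2-Ab1, H2-Eb1 and H2-Aa had smallest values of 6.01, 5.96 and 5.88 over the libraries. Lyz1 and Lyz2 (lysozymes), Saa3, Slpi (an antiprotease) and Malat1 (a nuclear RNA) completed the 10 most variable genes.

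Between libraries, 78 of 3332 genes of at least 50 CPM differed over 4-fold in Ccr2-high cells, with a median fold of 1.54 for all of them, and 47 of the 78 were highest in library 1. Without library 1 the number was 12. Ear2 differed 56.6-fold and Fcrls 32.1-fold between the highest and lowest library, with library 1 highest for both and library 4 lowest. Sdc1, the proteoglycan syndecan 1, stood at 68.3, 5.37, 5.40 and 1.09 CPM, Upb1, an enzyme of pyrimidine breakdown, at 54.1, 5.78, 6.17 and 0.724 CPM and Gpr141, an orphan receptor, at 2.15, 41.4, 55.5 and 28.2 CPM. Slpi stood at 283, 5450.2, 4265 and 7032 CPM. Ddx3y, Eif2s3y, Xist and Apoe were the other genes among the 10 with the largest fold. As no library is tied to a group, genotype, diet, treatment, animal and library cannot be told apart in these values.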

How the data were processed

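The data are UMI counts of single cells from 10x Genomics 3' V3 libraries, in which free RNA, doublets and depth can all move a gene's detection. Raw UMI counts per gene and barcode were deposited as 1 matrix, which per the file headers comes from Cell Ranger 5.0.1. Per the submitters' processing notes, CASAVA 1.8, Seurat and build mm10 were also used, with no role stated. Annotation, intron counting, cell calling and removal of free RNA: not given in the sources used here. Cells and gene lists were chosen with earlier results of these data known, and the lists come in part from earlier work on them.

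Cells were selected by the limits stated in the results; the gene limit removed 707, 247, 847 and 924 barcodes and the mitochondrial limit 1936, 495, 296 and 495 from libraries 1 to 4. UMIs were summed per cell set and library, scaled to CPM without the 13 selection genes, and compared as log2 ratios with a prior count of 0.5 and exact conditional binomial 95% intervals. A gene was called where the higher set reached 20 CPM and the log2 ratio was 1 or more, or -1 or less, in all 4 libraries. No p-value was computed, since the cells were chosen from the same counts, each group has 1 sample and cells are not replicates. Shares used cells thinned to 3000 UMIs, which left out 3, 8, 1 and 0 Ccr2-high cells, with exact Clopper-Pearson intervals; a count of 0 was given a floor of 3 counts. B cells (Cd79a at least 3) and T cells (summed Cd3 genes at least 2), both without Adgre1, gave the background.

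Scrublet, run through scanpy 1.11.5, marked 72, 1, 0 and 2 barcodes (1.30, 0.0153, 0 and 0.0312%), so it has not worked in libraries 2 to 4 and doublets remain; it marked none of the Ccr2-high cells. Genes were named by rule: the 15 largest and 15 smallest median ratios against Ccr2-zero cells, 8 of each in the other comparisons, 10 of highest Fano factor, 10 of largest fold between libraries, and list genes in groups (38 lists, 382 symbols). Names not in that rule are said to be so. Coordinates are from GENCODE M21 on GRCm38, and promoters, matched for 8 of 10 genes looked for, from RefSeq. Scripts used python 3.11.15, numpy 2.4.6, scipy 1.17.1, pandas 2.3.3 and matplotlib 3.10.9 and were tested on simulated data. Alternatives were limits of the selection, depth, scaling, prior count, low-value filter, doublets and leaving out each library.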

Additional observations from a re-analysis of the deposited data

Results flagged for a closer look

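Genes in 2 comparisons went opposite ways in different libraries, which are not tied to groups, and the difference between libraries was not tested. Against Ccr2-zero cells, Napsa, an aspartic protease of lysosomes, had a log2 ratio of -1.07 in library 1 and 3.40 in library 3. Its levels were 76, 111, 192 and 124 CPM in Ccr2-high cells, against 160.00, 70.6, 18.1 and 19 CPM in Ccr2-zero cells. A Napsa UMI was present in 87.1, 88.1, 82.2 and 88.9% of thinned B cells, and the Ccr2-zero cells of library 1 held Igkc at 1232 CPM.

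Plac8, a small cysteine-rich protein of monocytes and lymphocytes, had a log2 ratio of -2.64 in library 1 and 2.76 in library 3, with 53.3, 250.3, 326 and 69.1 CPM in Ccr2-high cells, against 333, 229, 48.3 and 12.8 CPM in Ccr2-zero cells. The part of B cell transcripts in either gene was not tested.

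Against class II Ccr2-zero cells, Cd24a, a glycoprotein of B cells and dendritic cells, had a log2 ratio of -1.16 in library 4 and 1.48 in library 1. Its levels were 34.4, 29.9, 16.2 and 18.8 CPM in Ccr2-high cells, against 12.2, 45.3, 35.9 and 42 CPM in class II Ccr2-zero cells. Chil3 had a log2 ratio of -1.04 in library 1 and 2.17 in library 4, with 917, 3394, 1610.3 and 1042 CPM in Ccr2-high cells, against 1893, 3362, 2199 and 231 CPM in class II Ccr2-zero cells.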

How the results depend on the processing

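The 1379 cells became 1675 with a Ccr2 limit of 2, 1125 with 4, 1263 with a Cd74 limit of 40, 1131 with a mitochondrial limit of 5%, 1083 with at least 2 Adgre1 UMIs and 716 when every cell was first thinned to 5000 UMIs. Alternatives chosen after seeing the data gave 374 (Ccr2 at least 10) and 1138 (no Ear2 or Fcrls UMI).

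The 12 genes higher than in Ccr2-zero cells became 4 with at least 2 Adgre1 UMIs, 8 with no Cd209a UMI, 30 and 5 with minimums of 5 and 50 CPM, 42 with Ccr2 at least 10 and 2 with no Ear2 or Fcrls UMI; leaving out 1 library gave 12 to 29, the most without library 2. The 16 lower genes became 47 and 10 with those minimums, and 16 to 44 without 1 library, again the most without library 2. The 6 higher than in class II Ccr2-zero cells became 2 with at least 2 Adgre1 UMIs, 3 with the 5% limit, 10 with a second thinning draw, 25 and 0 with those minimums, 37 with Ccr2 at least 10, 1 with no Ear2 or Fcrls UMI, and 6 to 26 without 1 library (26 without library 2, 11 without library 4). The 3 lower became 7 and 1 with those minimums, 5 with Ccr2 at least 10, and 3 to 17 without 1 library (17 without library 2). Against Cd209a cells, the 244 higher became 162 at 50 CPM, 146 with Ccr2 at least 10 and 272 to 354 without 1 library, and the 157 lower became 251 and 95 at 5 and 50 CPM and 174 to 235 without 1 library.

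The 78 genes differing over 4-fold between libraries became 12 without library 1 (12 to 74 over the libraries left out). The 39 variable genes became 40 to 45. Unthinned, the Ear2 shares were 36.7% in library 1 and 3.56% in library 2. Igkc turned to 0.15 when Ccr2-zero cells also lacked Cd79a and Cd3 genes. Of the named genes, 20 of 27 lost the call against Ccr2-zero cells under 1 or more alternatives, 8 of 9 against class II Ccr2-zero cells and 9 of 16 against Cd209a cells. Cxcl13, Vsig4, Marco, Ltbp1, Tgfb2, Pf4 and Serpinb2 kept it against Ccr2-zero cells under all 22 run. The cause of these shifts was not tested.

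No paired analysis was possible because each group has 1 sample and the columns carry no sample number; cell sets were compared within each library, with no test, as they were chosen from the same counts. Depth limits shares of weak genes, and the 112 cells of library 3 and the 18 Cd209a cells of library 1 give the least precise values.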
